A study of Mus musculus with 40 samples.

Results

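The proteasome subunit genes were taken as the protein-coding genes on mouse autosomes whose symbol begins with Psma, Psmb, Psmc, Psmd or Psme followed by a number. They were 44 of 20807 autosomal protein-coding genes, which left 20763 others for comparison. The pattern also took in Psmc3ip, a recombination cofactor that is not a subunit, and Psme2b, a gene with a symbol close to that of Psme2. Psmd5 and Psmd9, which encode assembly chaperones, were counted with the non-ATPase genes. Psmd10 lies on chromosome X and was counted apart. Positions were compared in 3 lists of binding sites (peaks) obtained by ChIP-seq, which sequences the DNA bound to a chosen protein, for SMRT, NCoR and HDAC3 in liver. The animals were fed ad libitum, male, on the C57BL/6 background, and carried Bcl6 fl/fl, a floxed allele of the repressor Bcl6 that had not been deleted. Each list pooled 3 libraries, so it holds no value per animal, and the other 31 of the 40 samples in the series (livers lacking Bcl6, PPARδ, histone mark and input libraries) were not used here. No genotype or feeding state was therefore compared, and no test was run: shares are given with exact 95% binomial (Clopper-Pearson) intervals, which cover counting error only.

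The proteasome degrades proteins tagged with ubiquitin. Its barrel-shaped core is built from rings of alpha and beta subunits, some of the beta subunits cut peptides, and a regulatory particle with a ring of ATPases unfolds substrates and feeds them in. Every cell needs the genes of the constitutive subunits, which are known to be expressed together and to rise through the transcription factor Nfe2l1 when proteasome activity falls. NCoR and SMRT are related corepressors that bring the histone deacetylase HDAC3 to chromatin.

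NCoR peaks were found at some proteasome promoters and, with few exceptions, without either partner. That was also the case at 67.9% of other promoters with NCoR, a value inside the interval of the members (61.5 to 99.8%). Sequences from genes with and without an NCoR peak are shown here from the GRCm38 (mm10) genome, 5′ to 3′ on the gene's strand. Capitals mark the CCAAT box (CCAAT, or ATTGG where it reads on the opposite strand), the ETS core (CCGGAAG or CTTCCGG) and the GC box (CCCCGCCCC here). Psmb2 (chr4:126677480-126677629, plus strand), Psmb3 (chr11:97703249-97703398, plus strand) and Psmc6 (chr14:45329638-45329787, plus strand) had an NCoR peak close to the start and a listed motif in the 150 bases upstream. Psma1 (chr7:114276119-114276268, minus strand) and Psma2 (chr13:14613166-14613239, plus strand, 74 bases, ending at the neighbouring gene Mrpl32) had no cofactor peak and a CCAAT box. The remaining 4 were chosen after the values were seen. Psma6 (chr12:55398625-55398774, plus strand) is the stretch upstream of an inner start site that all 3 cofactors shared. Psme1 (chr14:55577875-55578087, plus strand) is the HDAC3 interval of the only promoter with HDAC3 at the gene's 5′ end. Psmc3 (chr2:91053919-91054008, plus strand, 90 bases) and Psmd11 (chr11:80428465-80428614, plus strand) had no cofactor peak and an ETS core.
Psmb2: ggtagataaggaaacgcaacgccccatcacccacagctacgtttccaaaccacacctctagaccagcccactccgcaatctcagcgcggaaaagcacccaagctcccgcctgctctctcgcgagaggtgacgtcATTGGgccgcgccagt
Psmb3: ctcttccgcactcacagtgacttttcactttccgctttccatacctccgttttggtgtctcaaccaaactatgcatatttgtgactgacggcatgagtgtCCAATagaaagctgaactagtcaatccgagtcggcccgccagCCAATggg
Psmc6: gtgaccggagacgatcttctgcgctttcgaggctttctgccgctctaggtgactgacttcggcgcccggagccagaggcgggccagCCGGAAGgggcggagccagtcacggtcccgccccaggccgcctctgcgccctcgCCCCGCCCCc
Psma6: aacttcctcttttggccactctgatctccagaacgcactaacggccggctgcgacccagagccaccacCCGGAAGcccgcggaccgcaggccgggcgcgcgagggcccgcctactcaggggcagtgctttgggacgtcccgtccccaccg
Psme1: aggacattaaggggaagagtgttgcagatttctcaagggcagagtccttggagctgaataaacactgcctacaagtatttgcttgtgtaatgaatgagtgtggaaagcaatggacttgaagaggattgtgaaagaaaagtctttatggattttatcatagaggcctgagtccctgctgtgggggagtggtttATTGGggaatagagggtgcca
Psma1: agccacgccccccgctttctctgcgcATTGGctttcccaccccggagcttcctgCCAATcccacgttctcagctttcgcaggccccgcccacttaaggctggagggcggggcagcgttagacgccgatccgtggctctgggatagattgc
Psma2: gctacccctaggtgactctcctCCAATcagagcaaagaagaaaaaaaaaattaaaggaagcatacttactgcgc
Psmc3: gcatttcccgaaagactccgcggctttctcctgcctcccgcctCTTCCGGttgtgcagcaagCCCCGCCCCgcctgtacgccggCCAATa
Psmd11: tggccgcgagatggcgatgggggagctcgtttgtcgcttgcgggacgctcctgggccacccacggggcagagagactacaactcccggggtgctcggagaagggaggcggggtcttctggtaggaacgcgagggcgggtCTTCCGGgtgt

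An NCoR peak centre lay within 1000 bp of the transcription start site (TSS), taken as the gene's annotated 5′ end, at 12 of 44 proteasome genes. That is 27.3% (interval 15 to 42.8%), beside 19.9% of all autosomal protein-coding promoters, a background that lies inside the interval. A SMRT peak was found at 0 of 44 (interval 0 to 8.04%, or up to 6.82% if 0 is read as up to 3 counts), and the background was 3.45%. HDAC3 was found at 1 of 44 (2.27%, interval 0.0575 to 12%) against a background of 6.53%. No member had a shared site, an NCoR peak with both SMRT and HDAC3 centres within 200 bp, where 2.74% of all promoters had one. At 11 of the 12 genes every NCoR peak was NCoR-only, with neither partner within 200 bp, and these 11 were 25% of members (interval 13.2 to 40.3%) beside 13.6% of all promoters. In this window none of these shares was separated from its background by its interval. The NCoR-only share came closest, and its call depended on settings. Within 500 bp it was again 11 of 44, with 11.3% at other promoters, and without the tissue-restricted or interferon-induced members it was 11 of 36 (30.6%, interval 16.3 to 48.1%, others 13.5%). With Psmc3ip and Psme2b left out it was 11 of 42 (26.2%, interval 13.9 to 42%), and in these 3 settings the interval lay above the other promoters. Those others were not matched for CpG content. Among other CpG-rich promoters, described below, the NCoR-only share was 21.6% within 1000 bp, inside the interval of 13.2 to 40.3%.

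The choice of start site and of window changed which genes carried peaks and the count of shared sites. Within 2000 bp of the same 5′ ends, SMRT was found at 2 of 44 (4.55%, others 5.16%), HDAC3 at 2 of 44 (4.55%, others 8.86%) and a shared site at 1 (2.27%, others 4.15%). The 5′ end of Psmb11, Psmd5 and Psmd9 lay 3877, 4006 and 58777 bp from the start of any annotated protein-coding transcript. The NCoR peak counted for Psmd5, which encodes a chaperone of the regulatory particle, therefore sat in an intron of the opposite-strand gene Cutal and not at the start of the Psmd5 coding transcript. Psma6, an alpha ring subunit, has a second protein-coding start 14553 bp inside its 5′ end, and there NCoR, SMRT and HDAC3 centres lay at -72, -59 and -43 bp. Psmd9, another assembly chaperone, had an NCoR-only peak at +97 bp from its coding transcript start. With every protein-coding start counted, 13 of 44 members had NCoR (29.5%, others 22.4%), 2 had HDAC3 (4.55%, others 7.53%), and Psma6 alone had SMRT and a shared site (2.27%, others 4.19% and 3.32%).

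**Figure D1:**
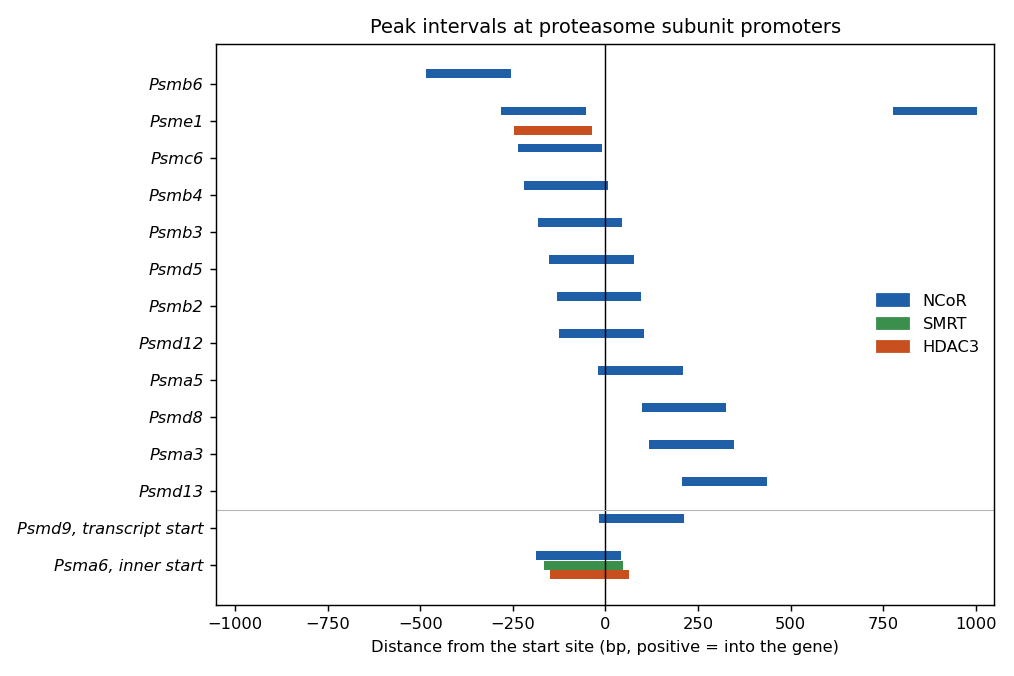
Peak intervals (bars, coloured by list) at members with a peak within 1000 bp, by distance in bp from the start site. The upper 12 genes are set on the gene's 5′ end, where only Psme1 has HDAC3 beside NCoR, and the lower pair are set on a protein-coding transcript start, where Psma6 has all 3 cofactors.

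Among the alpha ring genes, Psma3 and Psma5 had an NCoR-only peak at the 5′ end, or 2 of 7. The Psma5 centre lay at +95 bp in an interval that held the TSS (chr3:108256907-108257135), and the Psma3 centre lay in the gene's intron at +232 bp. Psma1, Psma2, Psma4, Psma6 and Psma7 had none there. Psma2 was the most remote, with its nearest NCoR peak 421 kb away in an intron of Arid4b.

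In the beta ring, 3 of the 4 subunits without proteolytic activity had an NCoR-only peak, and all 3 centres were upstream of the TSS. They were Psmb2 at -17 bp (chr4:126677499-126677727), Psmb3 at -68 bp (chr11:97703217-97703445) and Psmb4 at -107 bp, each in an interval that held the TSS. Psmb1 had none. Of the constitutive catalytic subunits, 1 of 3 had a peak: Psmb6, which carries the caspase-like activity, at -369 bp, while Psmb5 and Psmb7 had none. These groups hold 3 to 7 genes each, too few to order them.

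The tissue-restricted or interferon-induced core subunits had no cofactor peak at the promoter, 0 of 5 (interval 0 to 52.2%). These were Psma8 of the testis, Psmb11 of the thymus, and Psmb8, Psmb9 and Psmb10, which replace the constitutive catalytic subunits in the immunoproteasome. The nearest NCoR peak to Psmb8 was NCoR-only, at -2.83 kb in a coding exon of the peptide transporter gene Tap1, and that to Psmb9 lay at +6.44 kb. The nearest to Psmb10 was a shared site at -4.3 kb, in an intron of Lcat, which encodes a cholesterol-esterifying enzyme of plasma. All 3 cofactors had their closest peak to Psmb10 in this one place.

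Of the regulatory particle ATPases, only Psmc6 had an NCoR-only peak (-122 bp, chr14:45329552-45329780), or 1 of 6. Psmc1, Psmc2, Psmc3, Psmc4 and Psmc5 had none, nor did Psmc3ip. The non-ATPase genes, with the chaperones Psmd5 and Psmd9 counted among them, had 4 of 13 by the 5′ end. Psmd12, a scaffold subunit of the lid, held the peak closest to a TSS of any member, at -10 bp (chr11:107479360-107479588). Psmd8, another lid subunit, had its peak in the coding sequence of its own gene at +212 bp, and Psmd13 had one at +322 bp whose centre was 19 bp from the TSS of the opposite-strand neighbour Sirt3, a mitochondrial deacetylase. Psmd5 was the last of the 4 and has the start site problem described above. Psmd1 and Psmd2, the large scaffold subunits, the ubiquitin receptor Psmd4 and the deubiquitinase Psmd14 had no peak, nor did Psmd3, Psmd6, Psmd7, Psmd9 and Psmd11.

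Psme1, which encodes an interferon-induced subunit of the activator cap, was the only one of 5 activator genes with a cofactor. It had 2 NCoR peaks. The first (chr14:55577842-55578070, centre at -167 bp) lay 25 bp from the centre of the HDAC3 peak at -142 bp (chr14:55577875-55578087), whose sequence is shown above. The second lay in an intron at +890 bp and was NCoR-only. No SMRT centre was closer than 10.2 kb to the first. Its partner gene Psme2, 13.1 kb from that HDAC3 peak, had none at its own promoter, and neither did Psme2b, Psme3 or Psme4. NCoR with HDAC3 but no shared site was found at 3.16% of all promoters.

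At the 12 genes the nearest NCoR centre lay 10 to 369 bp from the TSS, with a median of 114.5 bp. Other promoters with an NCoR peak had a median of 166 bp and an upper quartile of 421 bp. The centre was upstream at 8 of 12 (66.7%, interval 34.9 to 90.1%) and at 52.1% of the others, and the nearest interval held the TSS itself at 6 of 12 (50%) and at 36.5%. Of the distinct NCoR peaks in these windows, 12 of 13 were NCoR-only (92.3%, interval 64 to 99.8%), against 68.1% at other promoters, which lies inside that interval. Without the tissue-restricted or interferon-induced members, Psme1 among them, it was 11 of 11 (interval 71.5 to 100%), and 68.1% lay below the interval. Psme1 held the only NCoR peak with a partner, so leaving it out fixed this value at 100%. Counted by promoter, the NCoR-only share at other CpG-rich promoters with NCoR was 72.3%, inside that interval. At the window's edge, the outermost peaks inside were those of Psme1 at +890 bp and Psmb6 at -369 bp. The closest outside were Psmd6 at +1047 bp, an upstream shared site of Psmd13 at -1354 bp within Sirt3, and Psmd9 at +1445 bp from its 5′ end.

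For the 11 genes with NCoR-only peaks, the partners were usually far away. The nearest HDAC3 centre was 1.68 to 239 kb from the NCoR centre, with a median of 58 kb, and lay beyond 10 kb at 9 of 11. For SMRT the range was 1.55 to 420 kb, the median was also 58 kb, and 8 of 11 lay beyond 10 kb. Psmb2 was the most isolated for both partners. The closest partners were the shared site upstream of Psmd13 and a second NCoR peak of Psmb6 at -1904 bp, which had SMRT and no HDAC3. Over all 44 members the nearest NCoR centre had a median distance of 6.05 kb from the TSS (others 18 kb), SMRT 40.5 kb (others 83.2 kb) and HDAC3 40.6 kb (others 57.9 kb). Within 10 kb, 26 members had an NCoR peak (59.1%, interval 43.2 to 73.7%), which was above the 40.5% of the others, a set not matched for CpG content. SMRT was that near at 6 members (13.6%, interval 5.17 to 27.4%, others 13.4%) and HDAC3 at 7 (15.9%, interval 6.64 to 30.1%, others 19.3%).

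**Figure D2:**
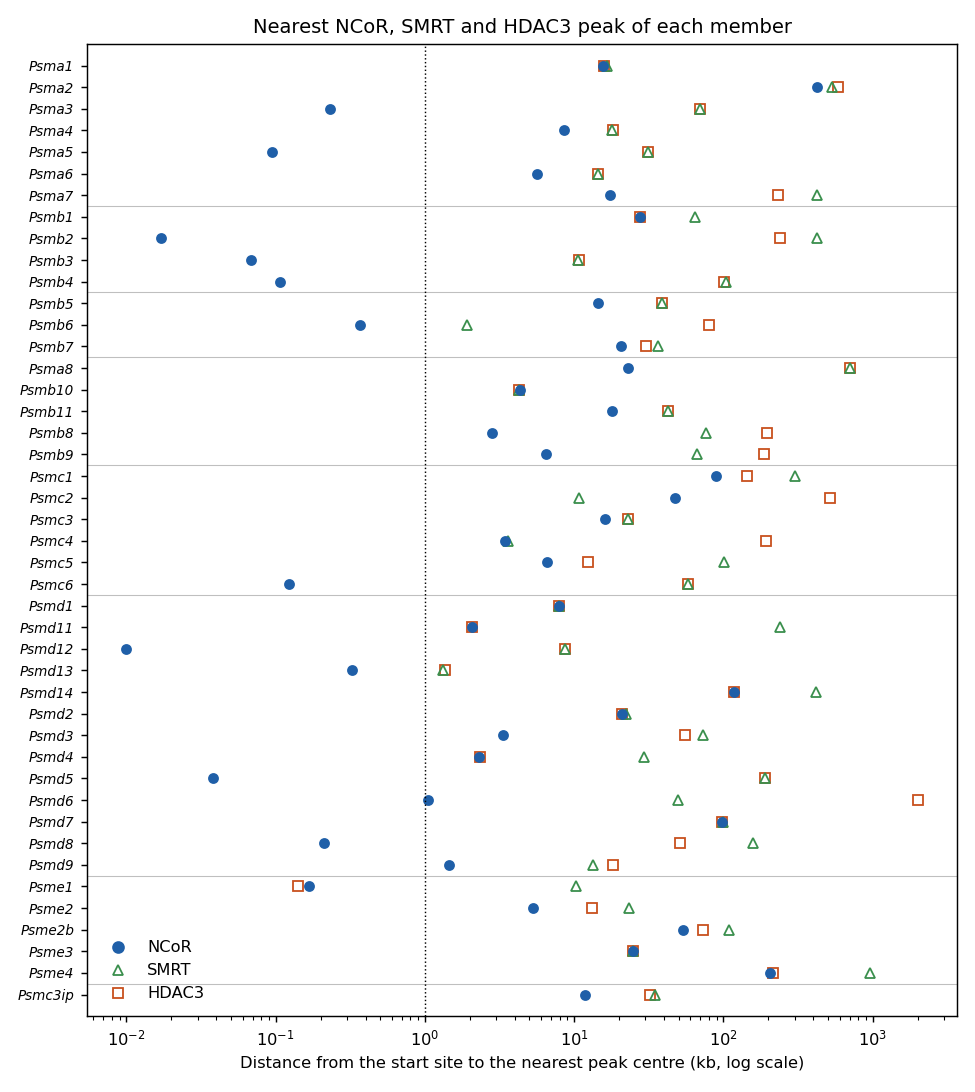
Distance in kb (log scale) from each member's 5′ end to the nearest NCoR, SMRT and HDAC3 peak centre, with subunit groups separated by lines and the 1 kb promoter limit dotted. NCoR lies to the left of the dotted line at 12 genes, HDAC3 at Psme1 alone and SMRT at none.

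Shared sites were found away from the 5′ ends. When each NCoR peak was assigned to the nearest protein-coding TSS, 46 peaks fell to 25 of the 44 members (56.8%, interval 41 to 71.7%, others 50.9%). Of these, 12 were within 1000 bp, since the peak at +322 bp of Psmd13 went to Sirt3, and none of the 12 was shared (interval 0 to 26.5%, others 13.6%). Among the 34 farther out, 11 were shared (32.4%, interval 17.4 to 50.5%, others 26.6%), at 7 genes and 1.35 to 98.6 kb from the TSS. Psma1 had a pair upstream at -16.5 and -47.3 kb, and Psmb3 had a pair downstream at +10.6 and +11.6 kb. Psmb7, the trypsin-like subunit, had a pair in its introns at 36.2 and 37.8 kb. Psma6 had one at -30.6 kb and the one at its inner start, and Psmd1, Psmd7 and Psmd13 had 1 each. NCoR-only peaks were 12 of the 34 (35.3%, interval 19.7 to 53.5%), below the 54.4% of other genes. These intervals treat peaks of one gene as separate. A further 8 had HDAC3 alone as partner (23.5%, interval 10.7 to 41.2%, others 14.7%), among them intronic peaks of Psmd11 at +2.07 kb and Psmd4 at +2.32 kb. SMRT alone was the partner of 3 (8.82%, interval 1.86 to 23.7%, others 4.36%), including one at -3.45 kb from Psmc4. By location, 15 of the 34 lay within the member's own gene, 12 between genes and 7 in another gene. Nearest-TSS assignment does not show which gene a site acts on.

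The promoters of proteasome genes were richer in CpG than most, and NCoR peaks were more frequent at CpG-rich promoters in general. The ratio of observed to expected CpG within 500 bp of the TSS had a median of 0.69 at members (0.16 to 0.96) and 0.57 at others. It was 0.71 at members with an NCoR peak and 0.69 at those without. The lowest member quartile was 0.61, and among other promoters at or above it 29.9% had an NCoR peak, against 11.4% below it. Members at or above it had one in 10 of 33 cases (30.3%, interval 15.6 to 48.7%), so the NCoR share was nearly that of other promoters of like CpG content. All 10 were NCoR-only (interval 69.2 to 100%), where 72.3% of the other CpG-rich promoters with NCoR were, a value inside the interval. As a share of promoters, these 10 of 33 (30.3%, interval 15.6 to 48.7%) stood beside 21.6% of other CpG-rich promoters with NCoR-only peaks alone, also inside. Psma6, Psmd9, Psmd5 and Psmb11 had ratios of 0.22, 0.24, 0.37 and 0.16, measured at the 5′ ends described above.

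Motifs were counted on both strands from 250 bp upstream to 50 bp downstream of the TSS. The ETS core CCGGAAG, which ETS family factors such as GABP recognise, stood at 15 of 44 members (34.1%, interval 20.5 to 49.9%) and at 11.0% of all promoters. Among CpG-rich promoters alone it stood at 13 of 33 members (39.4%, interval 22.9 to 57.9%) and 18.8% of others, so the interval lay above the background in both comparisons. It was found at 4 of 6 ATPase genes (Psmc1, Psmc2, Psmc3 and Psmc6), at 6 of 13 non-ATPase genes (Psmd2, Psmd4, Psmd6, Psmd7, Psmd11 and Psmd12) and at 3 of 5 activator genes (Psme2b, Psme3 and Psme4). The other 2 were Psma8, a tissue-restricted core subunit, and Psmc3ip. None of the 14 constitutive core genes held it in this window, although the inner start of Psma6 did, at -82 bp. By binding, it stood at 2 of the 12 members with an NCoR peak and at 13 of the 32 without.

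The YY1 motif AAGATGGC stood at 5 members (11.4%, interval 3.79 to 24.6%) and at 2.93% of all promoters, and at 5 of 33 CpG-rich members (15.2%, interval 5.11 to 31.9%) and 4.66% of the other CpG-rich promoters. Its intervals thus lay just above the background, with 8 motifs searched and no adjustment for their number. The 5 genes were Psma2, Psmb5, Psmb6, Psmc5 and Psmd7. The NRF1 motif GCGCANGCG stood at 6 (13.6%, all promoters 8.17%), and the GC box GGGGCGGGG at 7 (15.9%, all promoters 14.8%). The CCAAT box was the most frequent, at 18 (40.9%, all promoters 38.6%). It stands in both bound and unbound sequences above, which the choice of sequences made likely. Psma1 and Psma2 were chosen for holding it, and Psmb2, Psmb3 and Psmc6 for holding a listed motif. The antioxidant response element TGACNNNGC, which Nfe2l1 and Nfe2l2 can bind, stood at 6 members (13.6%, all promoters 12.6%). It was at 4 of 12 with an NCoR peak (Psmb2, Psmb6, Psmc6 and Psmd12) and 2 of 32 without (Psmb5 and Psmd7), but from 500 bp upstream to 100 bp downstream these counts were 4 and 11. The BCL6/STAT motif TTCNNNGAA stood at 5 (11.4%, all promoters 8.01%) and the FOX motif TGTTTAC at 1 (2.27%, all promoters 3.07%). Inside the 13 NCoR intervals, the ETS core was found in 3 (23.1%, other promoter peaks 11.5%) and the CCAAT box in 5 (38.5%, others 27%). The antioxidant element and the BCL6/STAT motif were found in 2 each (15.4%, others 14.4% and 5.13%), and YY1 in 1 (7.69%, others 1.87%). NRF1, the GC box and FOX were found in 0 of 13 (interval 0 to 24.7%), with 6.49%, 14% and 4.06% of other promoter peaks. With 13 intervals, none of these differed from its background beyond counting error. A match is a match of letters and does not show binding.

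**Figure D3:**
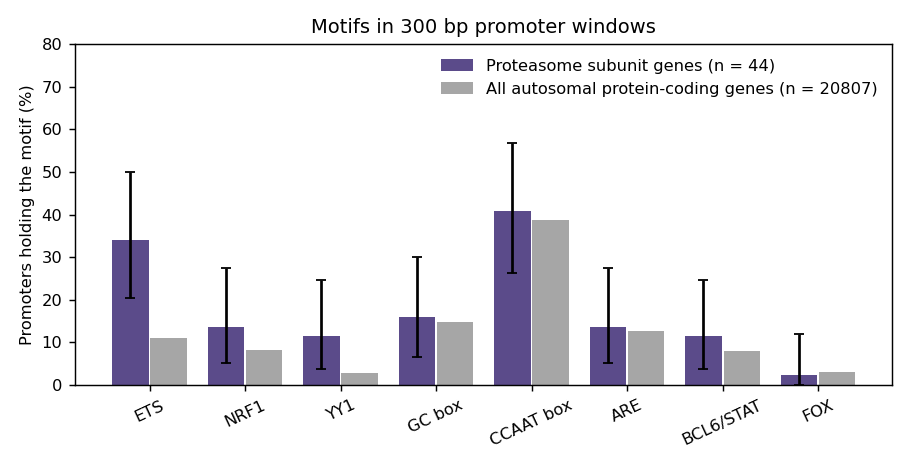
Share (%) of 300 bp promoter windows that hold each motif, for the 44 members (purple, with exact 95% intervals) and for all 20807 autosomal protein-coding genes (grey). The ETS bar of the members, 34.1%, has an interval that lies above the 11.0% of all promoters.

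An opposite-strand TSS lay within 1000 bp of 10 of 44 members (22.7%, interval 11.5 to 37.8%), and the 11.1% of other genes lay just below that interval. This call depends on the Psmd5 pair, whose 5′ end is not a coding transcript start. A count of 9 of 44 has an interval of 9.8 to 35.3%, which includes 11.1%. The other genes were not matched for CpG content. The pairs were Psma2 with Mrpl32, Psma4 with AY074887, Psma7 with Ss18l1, Psmb1 with Tbp, Psmb9 with Tap1, Psmc2 with Dnajc2, Psmc5 with Ftsj3, Psmd13 with Sirt3, Psme2 with Rnf31, and Psmd5 with Cutal by its 5′ end. An NCoR peak was found at 2 of these 10 (20%, interval 2.52 to 55.6%) and at 10 of the 34 without such a neighbour (29.4%, interval 15.1 to 47.5%). At other genes the shares were 30.9% and 18.6%. The member intervals include both values.

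Genes that assemble, serve or regulate the proteasome had NCoR peaks at 14 of 28 promoters (50%, interval 30.6 to 69.4%, above the background of 19.9%). That background was not matched for CpG content, and the CpG content of these 28 genes was not compared. At other CpG-rich promoters the NCoR share was 29.9%, just below the interval. Of the 14 with NCoR, 3 had a shared site (10.7% of the 28, interval 2.27 to 28.2%, all promoters 2.74%). They were Pomp, the core maturation factor, at +44 bp, Zfand5, a proteasome-binding activator, at -78 bp, and Ubqln1, a shuttle for ubiquitinated proteins. Ubqln1 had 2 NCoR peaks, 1 shared and 1 NCoR-only, and the nearer of them lay at +38 bp. Nfe2l2 also had 2 NCoR peaks, 1 with HDAC3 and 1 NCoR-only, and the nearer of them lay at +42 bp. The other 10 were NCoR-only, and they included Nfe2l1 at +508 bp, Ngly1, whose product activates Nfe2l1, at +438 bp, the deubiquitinase Uchl5 at -55 bp, Akirin2, which serves proteasome import into the nucleus, at -423 bp, and the segregase Vcp at +626 bp. SMRT was found at 3 of 28 (10.7%, interval 2.27 to 28.2%, all promoters 3.45%) and HDAC3 at 4 of 28 (14.3%, interval 4.03 to 32.7%, all promoters 6.53%). Both intervals include their background. These intervals overlap those of the subunit genes, and the list was drawn up with earlier results of these data known. Psmd10 had no peak in any list.

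Other large complexes expressed in every cell gave shares in the same range. Among 79 cytosolic ribosomal protein genes, 16 had NCoR (20.3%, interval 12 to 30.8%), 2 had SMRT and 5 had HDAC3. Among 79 genes of oxidative phosphorylation, 25 had NCoR (31.6%, interval 21.6 to 43.1%), 3 had SMRT and 6 had HDAC3. The NCoR-only part of the genes with NCoR was 11 of 16 (68.8%) and 19 of 25 (76.0%), beside 11 of 12 (91.7%, interval 61.5 to 99.8%) for proteasome genes. The peaks of the oxidative phosphorylation genes sat mostly downstream, with 3 of 25 centres upstream (12%, interval 2.55 to 31.2%). That interval falls narrowly short of the 34.9 to 90.1% of the proteasome genes. For the ribosomal protein genes the upstream share was 8 of 16 (50%, interval 24.7 to 75.3%), which overlaps both. The proteasome count includes Psmd5, whose 5′ end is not a coding transcript start, and was not repeated without it. This comparison of sides was not planned, and the proteasome interval includes the 52.1% of other promoters.

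**Figure D4:**
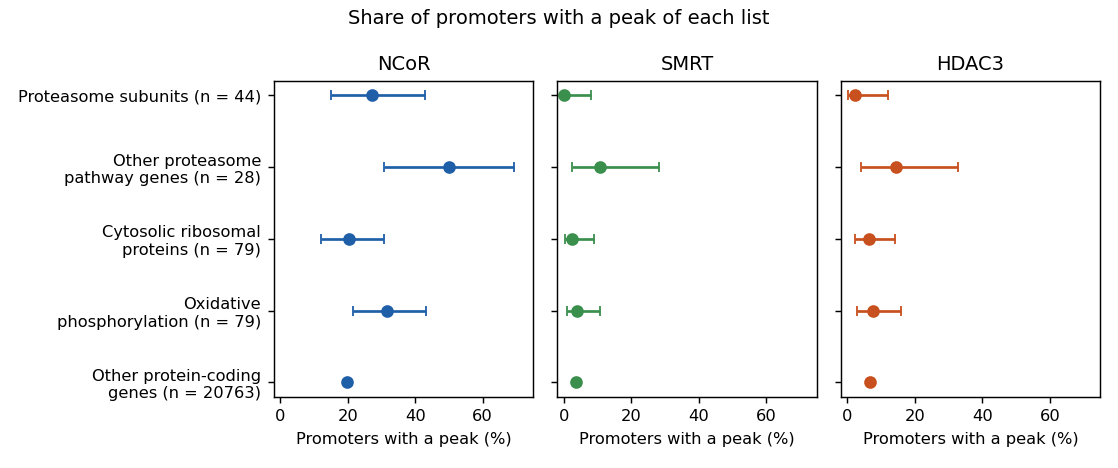
Share (%) of promoters with an NCoR, SMRT or HDAC3 peak within 1000 bp of the 5′ end, as points with exact 95% intervals, for 5 gene groups. The proteasome subunits stand at 27.3%, 0% and 2.27%, and the rest of the protein-coding genes lie inside each of these intervals.

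The lists held 35138 NCoR, 10654 SMRT and 14462 HDAC3 peaks, in intervals of 228, 212 and 212 bp. Hepatocyte marker promoters, such as that of Alb, had NCoR peaks at 7 of 10, SMRT at 5 and HDAC3 at 1, and markers of other liver cell types had none in any list (0 of 16, which allows a share of up to 18.8%). The depth of the libraries behind each list is not given in the sources used here, so a promoter without a SMRT or HDAC3 peak cannot be told apart from one with signal below the authors' threshold.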

How the data were processed

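ChIP-seq peak lists of SMRT, NCoR and HDAC3 in fed control liver were used, 1 list for each cofactor. Per the labels and the study's methods, the authors aligned reads to mm10 with Bowtie, kept uniquely mapped reads, called peaks on 3 pooled libraries against input with HOMER and filtered them with DESeq2 on the single libraries. The deposited lists hold only chromosome, start and end (positions in bp, no score, fold, signal or count), so no depth or value per replicate could be used.

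Peak centres were set against the gene 5′ ends of the GENCODE vM21 basic annotation. All peaks lay inside the ends of the 21 GRCm38 chromosomes. Promoters ran 1000 bp to either side, and partners were centres within 200 bp. Shares carry exact 95% binomial intervals (scipy 1.17.1), and a count of 0 was read as up to 3 counts where 10 or more genes were compared. Sequence came from RefSeq GRCm38.p6. Window and partner counting was tested on simulated peaks. Every member is named by class, positions are given for members with SMRT or HDAC3 and the 5 other NCoR centres closest to the TSS, with others added after their values were seen. By the same rule Psmd5 qualified for a printed sequence but is left out because its 5′ end is not a coding transcript start. The members and lists were chosen with earlier results of these data known. Pathway symbols matched 28 genes, and Paaf1 and 3 older symbols matched none. No set test was run. Alternatives tried were other windows, start sites, member lists, partner distances and motif windows.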

Additional observations from a re-analysis of the deposited data

How the results depend on the processing

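Of 68 alternative values of the main shares, differences and distances, 65 kept their direction and were not counted as moved. That rule still allowed large changes in the differences given below, and a SMRT share of 4.55% within 2000 bp in place of 0%. The interval of the NCoR-only share lay above its background within 500 bp (others 11.3%) and with the pattern matched in full (26.2%, others 13.5%). It also did so without the tissue-restricted or interferon-induced members (30.6%, others 13.5%). The share of members with an NCoR peak ran from 20.5% (1000 bp upstream to 100 bp downstream) to 31.8% (2000 bp to either side). The difference in NCoR share, members minus others, was 7.34 percentage points, and -2.58 when all 44 members were set against CpG-rich promoters only, which are unlike sets. Between CpG-rich members and CpG-rich promoters, a comparison added after seeing the data, it was 0.452 points. The difference in NCoR-only share was 11.5 points, 3.42 with all 44 members against CpG-rich promoters only, and 8.72 between the CpG-rich sets. Without the tissue-restricted or interferon-induced members, among them Psme1, the HDAC3 share was 0 of 36 genes (0%) and 11 of 11 NCoR peaks were NCoR-only (100%, interval 71.5 to 100%, others 68.1%), since Psme1 held the only HDAC3 peak. Both values were thus fixed by leaving Psme1 out. Counting any protein-coding start gave 13 genes with NCoR and 1 shared site, at Psma6. The start of the most upstream protein-coding transcript, an alternative chosen after seeing the data, gave 12 genes with NCoR (27.3%) and no shared site, and the ETS core stayed at 34.1% of members (all promoters 11.4%). Matching the symbol pattern in full left out Psmc3ip and Psme2b (42 genes). Of 16 alternative motif shares, 2 moved, both in the wider window: the CCAAT box to 59.1% (all promoters 57.8%) and the antioxidant element to 34.1% (21.7%).

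No paired analysis was possible because the replicates of a cofactor were merged before its peaks were listed, so leaving out a replicate was not run either. A stricter peak threshold was not run, as positions came without any height or score. Depth is unknown, and 44 genes leave wide intervals: for the SMRT count of 0 the interval reaches 8.04%.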
